A study of Mus musculus with 4 samples.

Results

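The 10 immediate-early genes described here are Fos, Fosb, Jun, Junb, Egr1, Atf3, Zfp36, Dusp1, Ier2 and Nr4a1, chosen by name from a fixed list and matched by symbol to Ensembl gene IDs in GENCODE mouse release M21 on GRCm38. Each of the 10 matched 1 ID among the 55573 that the files list, and all 10 passed the filter on low counts. They were measured by RNA-seq of quadriceps, the large muscle of the front of the thigh, in 2 libraries from vdr-/- mice of the strain B6.129S4-Vdrtm1Mbd/J and 2 libraries from wild-type (WT) C57BL/6J mice. All mice were 7 weeks old, were weaned at 21 days and had regular chow and water, and the vdr-/- mice carry a knockout allele of Vdr, the nuclear receptor for the active form of vitamin D, in all tissues. The labels number the libraries 1 and 2 in each group and do not say whether they came from separate animals, so a p-value here reflects library-to-library spread that may be technical.

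Immediate-early genes are transcribed within minutes of a stimulus such as a growth factor, contraction, injury or stress, without new protein synthesis, and their mRNAs decay quickly. Kinase cascades reach their promoters through serum response factor and its partners at CArG boxes, and through CREB at cAMP response elements (CREs). Fos, Fosb, Jun and Junb encode subunits of the dimeric transcription factor AP-1, Egr1, Atf3 and Nr4a1 encode other transcription factors, and Zfp36 and Dusp1 encode proteins that end the response. In muscle these genes are known to respond to exercise, to injury and to the handling of tissue.

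Promoter sequence was available for 8 of the 10 genes (RefSeq, GRCm38.p6; not for Egr1 and Ier2) and is shown for the 4 whose vdr-/- libraries both lay above both WT libraries. The lines run 5′ to 3′ on the strand of the gene. Capitals mark the CRE core TGACG and the TATA box TATAAA in Fos (chr12:85473640-85473889, plus strand, bases -250 to -1 from the start) and the CRE core in Fosb (chr7:19310052-19310295, minus strand, -250 to -7). They mark the CArG box in Zfp36 (chr7:28379267-28379296, minus strand, -68 to -39) and the full CRE, TGACGTCA, in Dusp1 (chr17:26508597-26508626, minus strand, -154 to -125). The Zfp36 stretch lies inside an exon that GENCODE starts farther upstream. The Dusp1 stretch lies outside the GENCODE exons of Dusp1 but inside that gene, which GENCODE also starts farther upstream (26505590 to 26562128, minus strand).
Fos: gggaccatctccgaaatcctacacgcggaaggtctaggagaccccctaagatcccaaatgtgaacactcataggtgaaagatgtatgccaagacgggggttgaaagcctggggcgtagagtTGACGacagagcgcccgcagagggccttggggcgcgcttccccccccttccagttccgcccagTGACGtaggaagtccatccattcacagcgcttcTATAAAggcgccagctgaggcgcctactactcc
Fosb: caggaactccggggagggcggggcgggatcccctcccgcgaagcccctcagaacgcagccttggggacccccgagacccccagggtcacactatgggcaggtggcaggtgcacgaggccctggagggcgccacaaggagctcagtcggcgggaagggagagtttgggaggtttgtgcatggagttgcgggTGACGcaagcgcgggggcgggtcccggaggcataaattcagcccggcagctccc
Zfp36: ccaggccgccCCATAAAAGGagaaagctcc
Dusp1: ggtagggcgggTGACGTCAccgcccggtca

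In the 250 bases before the start, read on both strands, the CRE core was found in 6 of the 8 promoters (Fos, Fosb, Junb, Atf3, Dusp1 and Nr4a1), against 17.8% of all 32851 promoters in the table. The CArG box was found in Zfp36 alone of the 8, against 1.47% of all promoters. Bases farther upstream were not searched, so the other genes may hold a CArG box there. The full CRE, which contains the core on each strand, was found in Dusp1 alone of the 8, against 1.55% of all. The TATA box was found in Fos alone of the 8, against 12.4% of all. Neither the AP-1 site TGANTCA (6.75% of all promoters) nor the EGR site GCGTGGGCG (0.536%) was found in any of the 8 windows. A match describes letters and shows no binding.

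The vdr-/- libraries held 21.34 M and 11.21 M counts in all, and the WT libraries 10.79 M and 13.03 M. Replicates of a group differed beyond counting noise (chi-square per degree of freedom 12.47 in vdr-/- and 8.04 in WT). Levels are given as CPM (counts relative to the library total) scaled by TMM, and levels compared between genes as FPKM, which also divides by exon length. Fibre genes such as Acta1 (14740 and 16280 CPM in vdr-/-, 17010 and 16290 CPM in WT) were abundant in every library, as the tissue label says. By Xist, which coats the inactive X chromosome of female cells, the groups differ in sex: it stood at 0 and 0.256 CPM in vdr-/- and at 183 and 217 CPM in WT, so genotype and sex cannot be told apart in anything below. WT replicate 1 also held 50 counts of the Y-linked gene Ddx3y, where WT replicate 2 held 0. Vdr itself was not used to check the labels here, since the allele removes only a part of the gene.

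Zfp36 and Dusp1, the genes that close the response, rose in vdr-/- muscle and were alike within each group, whereas Fos, Fosb, Egr1, Atf3 and Junb were highest in vdr-/- replicate 1. Of these, Fos and Fosb were also above both WT libraries in vdr-/- replicate 2, Fosb within counting error. By edgeR's quasi-likelihood test across 13076 genes, with Benjamini-Hochberg adjustment and a gene called at an adjusted p below 0.05, 2 of the 10 were called, both higher. The same test called 2.47% of all tested genes (1.91% higher and 0.558% lower). Of the 10 genes, 8 had a positive log2 fold change of vdr-/- over WT. Their median was 0.71, against a median of 0.00 over all tested genes. As the 10 were chosen with earlier results of these data known, this comparison describes them and is no test. In 4 of the 10 the vdr-/- libraries lay wholly above the WT libraries, as did 23.0% of all tested genes, and in none wholly below, as did 21.7%.

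**Figure D1:**
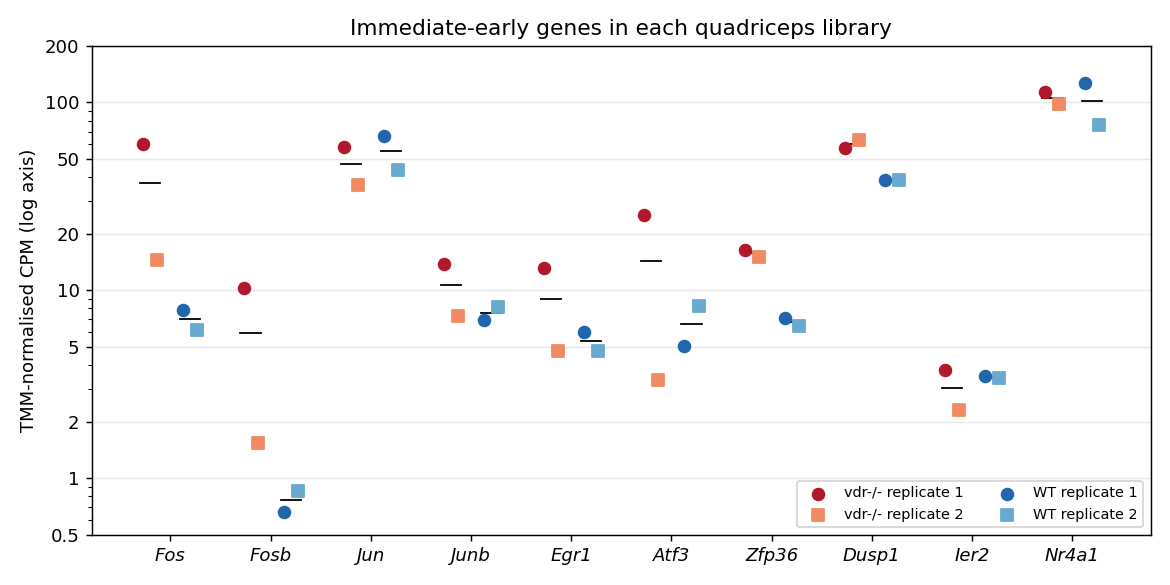
TMM-normalised CPM (log axis) of the 10 immediate-early genes in each quadriceps library, vdr-/- libraries to the left of WT for each gene, with a black line at each group mean (n = 2). Zfp36 and Dusp1 lie close together within each group and apart between groups, while Fos, Fosb, Egr1 and Atf3 have vdr-/- replicate 1 at least 2-fold above every other library.

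Zfp36 encodes tristetraprolin, an RNA-binding protein that speeds the decay of mRNAs with AU-rich elements, among them those of cytokines (ENSMUSG00000044786, chromosome 7, 28376784 to 28380253, minus strand, 1 exon block of 3470 bases). It had 345 and 176 counts in vdr-/- replicates 1 and 2, which are 16.4 and 15.01 CPM, against 75 and 83 counts in WT replicates 1 and 2, which are 7.11 and 6.48 CPM. Both vdr-/- libraries were above both WT libraries, and the libraries of each group differed little from each other (1.09-fold in vdr-/-, 1.10-fold in WT). Zfp36 rose to 15.7 ± 0.984 CPM in vdr-/- muscle, against 6.79 ± 0.446 CPM in WT (SD, n = 2 each), a log2 fold change of 1.21 ± 0.17 (SE; edgeR adjusted p = 0.00229). Its call stayed without each library in turn, with log2 fold changes from 1.14 to 1.28 and adjusted p from 0.00197 to 0.0157. On the opposite strand, the overlapping gene Gm44710, which shares 125 exon bases with Zfp36, held 7 and 2 counts in vdr-/- and 2 and 1 counts in WT.

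Dusp1 encodes a phosphatase that inactivates the MAP kinases p38, JNK and ERK (ENSMUSG00000024190, chromosome 17, 26505590 to 26562128, minus strand). It stood at 57.3 and 62.8 CPM in vdr-/- replicates 1 and 2, against 38.9 and 38.7 CPM in WT replicates 1 and 2. The 2 WT libraries were nearly equal and both vdr-/- libraries were above them. Dusp1 rose to 60.0 ± 3.88 CPM in vdr-/-, against 38.8 ± 0.107 CPM in WT, a log2 fold change of 0.63 ± 0.12 (edgeR adjusted p = 0.0200). The size was stable without each library in turn (0.57 to 0.69), but the call was lost without WT replicate 1 (adjusted p = 0.0511), WT replicate 2 (adjusted p = 0.0683) or vdr-/- replicate 2 (adjusted p = 0.0603). It stayed without vdr-/- replicate 1 (adjusted p = 0.0359). Dusp1 shares 11 exon bases with Ergic1 on the opposite strand, and the counts are strand-specific, as genes lying wholly under exons of the other strand had counts (119 of 457) and those under exons of their own strand did not, but for 1 of 712.

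Fos encodes an AP-1 subunit that cannot pair with itself and binds DNA as a dimer with a Jun protein (ENSMUSG00000021250, chromosome 12, 85473890 to 85477273, plus strand). It had 1261 and 170 counts in vdr-/- replicates 1 and 2, against 83 and 79 in WT replicates 1 and 2. These are 59.9 and 14.5 CPM in vdr-/- and 7.87 and 6.16 CPM in WT. Both vdr-/- libraries were above both WT libraries, by 8.54-fold and 2.07-fold over the WT mean, but vdr-/- replicate 1 was 4.14-fold above vdr-/- replicate 2. With that spread Fos was not called (37.2 ± 32.1 CPM in vdr-/-, 7.01 ± 1.20 CPM in WT; log2 fold change 2.44 ± 1.05, edgeR adjusted p = 0.529). Set against WT with 1 vdr-/- library at a time, which assumes that the lone library varies like the WT pair, Fos was called with either: 3.10 with vdr-/- replicate 1 alone (adjusted p = 1.24e-06) and 1.05 with vdr-/- replicate 2 alone (adjusted p = 0.0375).

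Fosb, a second FOS family subunit, was also highest in vdr-/- replicate 1, at a far lower level per length (ENSMUSG00000003545, chromosome 7, 19302696 to 19310051, minus strand). It had 217 and 18 counts in vdr-/- replicates 1 and 2, against 7 and 11 in WT replicates 1 and 2, or 10.3 and 1.53 CPM in vdr-/- and 0.663 and 0.858 CPM in WT. The exact 95% Poisson interval of vdr-/- replicate 2 (0.910 to 2.43 CPM) overlapped those of WT replicate 1 (0.267 to 1.37 CPM) and WT replicate 2 (0.428 to 1.54 CPM), so at this depth only vdr-/- replicate 1 (8.99 to 11.8 CPM) stood clear of the rest. These intervals cover counting error only. Fosb was not called (log2 fold change 3.01 ± 1.42, edgeR adjusted p = 0.537), nor with vdr-/- replicate 2 alone against WT (0.99, adjusted p = 0.632), and it was called with vdr-/- replicate 1 alone (3.73, adjusted p = 2.22e-05).

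Jun and Junb, the partners of FOS proteins, did not share the size of these differences. Jun (ENSMUSG00000052684, chromosome 4, 95049034 to 95052222, minus strand) stood at 58.1 and 36.3 CPM in vdr-/- replicates 1 and 2 and at 66.0 and 43.7 CPM in WT replicates 1 and 2. The groups overlapped, WT replicate 1 was highest, and the log2 fold change was -0.20 ± 0.32 (edgeR adjusted p = 0.859). Junb, which is often a weaker activator than Jun (ENSMUSG00000052837, chromosome 8, 84974484 to 84978718, minus strand), stood at 13.9 and 7.33 CPM in vdr-/- and at 6.92 and 8.19 CPM in WT. Here vdr-/- replicate 1 was highest and the other 3 libraries lay together (0.52 ± 0.28, adjusted p = 0.484). Junb shares 173 exon bases with Prdx2 on the opposite strand, and Jun 232 with the antisense gene Junos, which held 10 to 19 counts in each library.

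Per length, the balance of FOS to JUN transcripts differed between the libraries more than either Jun or Junb did. The ratio of Fos to Jun in FPKM was 1.40 in vdr-/- replicate 1 and 0.541 in vdr-/- replicate 2, against 0.162 in WT replicate 1 and 0.191 in WT replicate 2. Fos transcripts thus outnumbered Jun transcripts in 1 library, vdr-/- replicate 1. The ratio of Fosb to Fos stayed low in all 4 libraries, at 0.0648 and 0.0399 in vdr-/- and 0.0318 and 0.0525 in WT. The ratio of Junb to Jun was 0.331 and 0.280 in vdr-/- and 0.145 and 0.260 in WT. These ratios describe the libraries, depend on the exon lengths taken and were not tested.

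**Figure D2:**
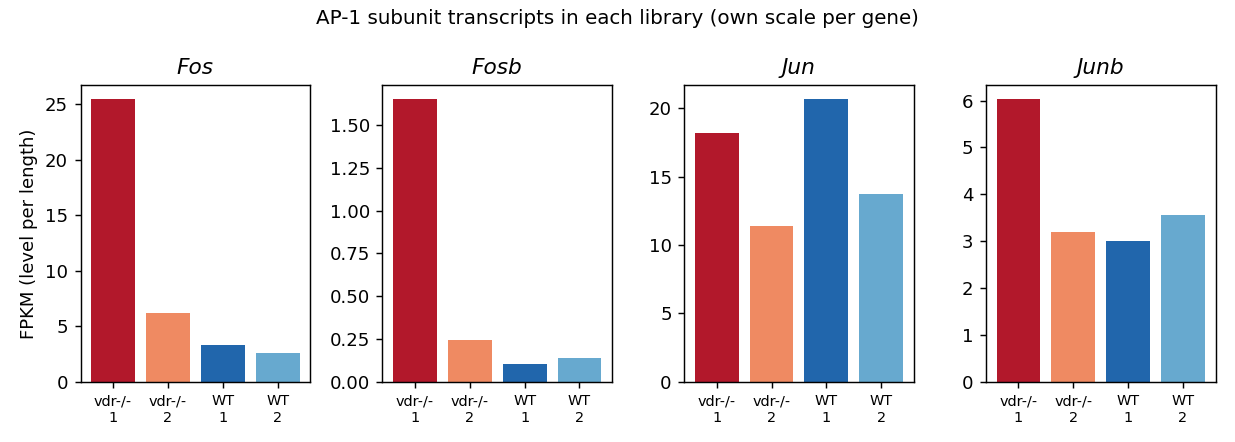
Levels per length (FPKM, linear axes from 0, own scale for each gene) of the AP-1 subunit genes Fos, Fosb, Jun and Junb in the 2 vdr-/- and 2 WT libraries, 1 bar a library. Fos reached 25.5 and 6.16 FPKM in vdr-/- and 3.34 and 2.62 FPKM in WT, while Jun ranged from 11.4 to 20.7 FPKM with the groups overlapping.

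Egr1, Atf3 and Nr4a1 encode transcription factors outside AP-1's core. Egr1, a zinc finger factor (ENSMUSG00000038418, chromosome 18, 34859823 to 34864984, plus strand), stood at 13.1 and 4.77 CPM in vdr-/- replicates 1 and 2 and at 5.97 and 4.76 CPM in WT replicates 1 and 2. It was high in vdr-/- replicate 1 only, and the groups overlapped (log2 fold change 0.79 ± 0.55, edgeR adjusted p = 0.646). Without vdr-/- replicate 1 the value was -0.17.

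Atf3, a stress-inducible factor of the ATF/CREB family (ENSMUSG00000026628, chromosome 1, 191170296 to 191218039, minus strand), had both the highest and the lowest value in vdr-/- muscle: 25.2 and 3.33 CPM in vdr-/- replicates 1 and 2, against 5.02 and 8.27 CPM in WT replicates 1 and 2. The log2 fold change of 1.15 ± 1.32 was not called (edgeR adjusted p = 0.823). It was 1.91 with vdr-/- replicate 1 alone against WT (adjusted p = 0.00128) and -1.01 with vdr-/- replicate 2 alone (adjusted p = 0.272), so its direction rests on which library is used.

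Nr4a1, the orphan nuclear receptor Nur77 (ENSMUSG00000023034, chromosome 15, 101254269 to 101274795, plus strand), stood at 114 and 98.5 CPM in vdr-/- and at 127 and 76.2 CPM in WT. The WT libraries enclosed both vdr-/- libraries (log2 fold change 0.07 ± 0.23, edgeR adjusted p = 0.946). Ier2, a small nuclear protein gene (ENSMUSG00000053560, chromosome 8, 84661331 to 84662852, minus strand), stood at 3.76 and 2.30 CPM in vdr-/- and at 3.51 and 3.43 CPM in WT (-0.16 ± 0.30, adjusted p = 0.886). The vdr-/- libraries of Ier2 enclosed both WT libraries.

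With vdr-/- replicate 1 alone against WT, the log2 fold change was positive for all 10 genes. Their median was 1.08, against -0.005 over all tested genes. With vdr-/- replicate 2 alone it was positive for 4 of the 10. Their median was then -0.05, against -0.007 over all tested genes. Vdr-/- replicate 1 was the highest library for 7 of the 10 genes, as it was for 25.0% of all tested genes. It was at least 2-fold above each other library for 4 of the 10, as for 0.444% of all tested genes.

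**Figure D3:**
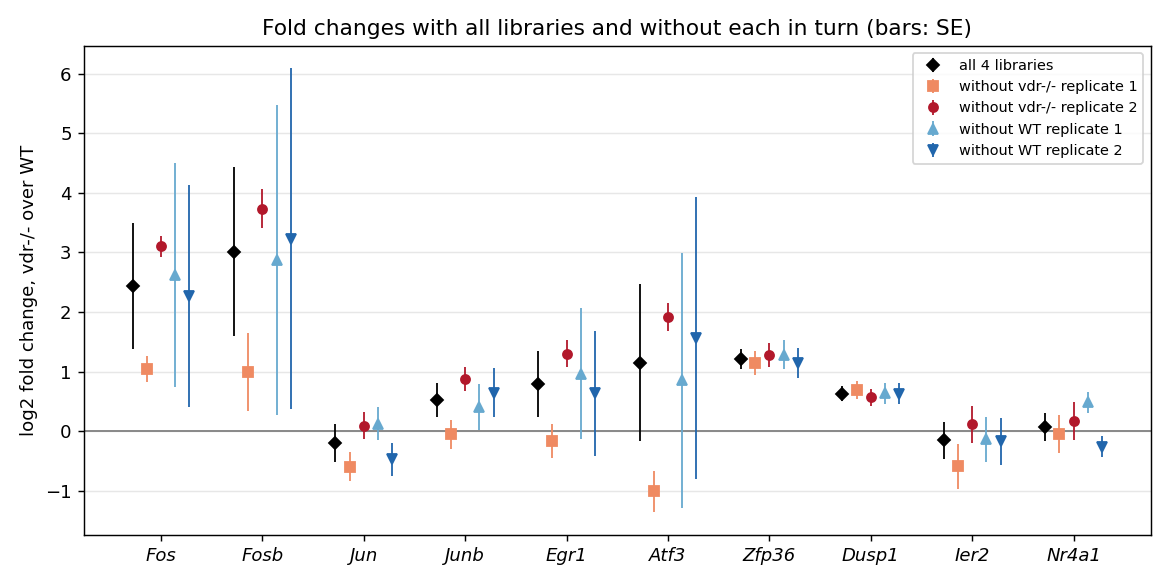
Log2 fold change of vdr-/- over WT (y axis; bars are SE) for each gene with all 4 libraries (black) and without each library in turn. Zfp36 (1.14 to 1.28) and Dusp1 (0.57 to 0.69) keep their size in every setting. Without vdr-/- replicate 1 every gene but Dusp1 is lower, Zfp36 only slightly, and Junb, Egr1, Atf3 and Nr4a1 fall below 0.

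The order of levels per length was led by Nr4a1 in both groups, at 30.3 ± 3.12 FPKM in vdr-/- and 29.0 ± 10.3 FPKM in WT (SD, n = 2 each). In vdr-/- muscle Dusp1 (18.1 ± 1.17), Fos (15.8 ± 13.7) and Jun (14.8 ± 4.84 FPKM) followed and overlapped each other. Atf3 (6.63 ± 7.19) overlapped Jun above it and Junb (4.61 ± 2.01) below it, and Junb overlapped Zfp36 (4.53 ± 0.284 FPKM). Zfp36 was apart from the next gene, Egr1 (2.00 ± 1.32), and Egr1, Ier2 (1.99 ± 0.675) and Fosb (0.949 ± 0.994 FPKM) overlapped at the bottom.

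In WT muscle, Jun (17.2 ± 4.94 FPKM) and Dusp1 (11.7 ± 0.0322) came next and were apart from each other. Junb (3.28 ± 0.392), Atf3 (3.09 ± 1.07) and Fos (2.98 ± 0.511 FPKM) could not be ordered. Ier2 (2.28 ± 0.0339), Zfp36 (1.96 ± 0.129), Egr1 (1.20 ± 0.191) and Fosb (0.122 ± 0.0221 FPKM) were each apart from the next. In both groups, apart means only that the library values did not overlap. Counting error was left out, and Ier2 had only 37 and 44 counts in WT replicates 1 and 2. Fos thus had rank 3 in vdr-/- and rank 6 in WT by its mean. Its ranks were 2 and 4 in vdr-/- replicates 1 and 2, and 4 and 6 in WT replicates 1 and 2. FPKM here divides by all annotated exon bases of a gene, such as 3470 for Zfp36 and 6243 for Fosb. The order between genes therefore depends on the lengths taken.

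Fosb varied most over the 4 libraries among the 10 genes (SD 1.68 on the log2 CPM scale), and Fos was close to its profile. The genes nearest to Fosb among 11092 others, by Euclidean distance between centred log2 CPM profiles over the 4 libraries, were Acan, S100a8, Kcnf1, Col2a1 and Rgs2 (distances 0.61 to 0.99; Fos 0.65). Acan and Col2a1 encode proteins of cartilage matrix, S100a8 a neutrophil protein, Kcnf1 a potassium channel subunit and Rgs2 a regulator of G-protein signalling that is itself an immediate-early gene. Acan stood at 11.9 and 2.47 CPM in vdr-/- and at 0.569 and 0.858 CPM in WT. Rgs2 stood at 39.5 and 12.02 CPM in vdr-/- and at 5.78 and 9.52 CPM in WT. None of the 5 was called with all libraries (edgeR adjusted p from 0.204 to 0.580).

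Of 36 other immediate-early genes tested, 2 were called higher and 1 lower in vdr-/- muscle, against 1.91% and 0.558% of all tested genes. Their median log2 fold change was 0.09. By edgeR 11 of the 36 had an unadjusted p below 0.05. The share of all tested genes at that level is not given, so such counts, here and below, only describe the lists. Of the 36, 18 were highest in vdr-/- replicate 1, against 25.0% of all tested genes. Gadd45g, which binds stress kinases and cell-cycle proteins, rose to 68.4 and 47.8 CPM in vdr-/-, against 28.4 and 25.5 CPM in WT (1.11 ± 0.17, edgeR adjusted p = 0.00538). Rhob, a small GTPase of endosomes, rose to 60.8 and 62.9 CPM in vdr-/-, against 38.2 and 35.5 CPM in WT (0.75 ± 0.12, adjusted p = 0.00708). Ccn2, a secreted matrix-associated growth factor that serum induces, fell to 33.1 and 29.4 CPM in vdr-/-, against 64.0 and 58.1 CPM in WT (-0.96 ± 0.13, adjusted p = 0.00198). These 3 calls stayed without each library in turn.

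By edgeR the relatives of the 10 genes held no call. Of 9 tested AP-1 and other bZIP genes, 1 had an unadjusted p below 0.05, and DESeq2 called the same 1, Maf (102 and 97.6 CPM in vdr-/-, 148 and 139 CPM in WT; log2 fold change -0.52 ± 0.12, edgeR adjusted p = 0.0549). Maff had a log2 fold change of 0.34 (adjusted p = 0.658). Of 6 tested EGR and NR4A genes with their corepressors, 1 had an unadjusted p below 0.05 and DESeq2 called 0. This was Nr4a2, which had 4.42 and 2.13 CPM in vdr-/- and 7.39 and 5.70 CPM in WT (-0.93 ± 0.31, adjusted p = 0.183). Nab1, an EGR corepressor, had a log2 fold change of 0.26 (adjusted p = 0.506) and Egr3 0.91 (adjusted p = 0.548).

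Of the genes that act on the same pathways, edgeR and DESeq2 called 0 of 7 tested dual-specificity phosphatases besides Dusp1, with 1 at an unadjusted p below 0.05. This was Dusp4, which stood at 2.61 and 4.78 CPM in vdr-/- and at 0.948 and 1.33 CPM in WT (log2 fold change 1.64 ± 0.41, edgeR adjusted p = 0.0643), followed by Dusp10 (0.47, adjusted p = 0.395) and Dusp14 (-0.60, adjusted p = 0.427). Only 3 of 11 genes of the ZFP36 family and its known target mRNAs could be tested, with 0 called by edgeR or DESeq2 and 0 at an unadjusted p below 0.05: Zfp36l2 (-0.31, adjusted p = 0.441), Ccl2 (0.89, adjusted p = 0.466) and Zfp36l1 (0.10, adjusted p = 0.860). The cytokine targets Tnf, Il6, Il1b and Csf2 stood at 0 to 0.570 CPM in every library, too few counts to compare. Among 23 upstream kinases and factors, such as Srf, Creb1 and the MAP kinases, edgeR and DESeq2 called 0 (median log2 fold change -0.08), with 1 at an unadjusted p below 0.05. The smallest p-values belonged to Egfr (0.45, adjusted p = 0.199), Mapk8 (-0.31, adjusted p = 0.371) and Map2k1 (-0.27, adjusted p = 0.420).

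**Figure D4:**
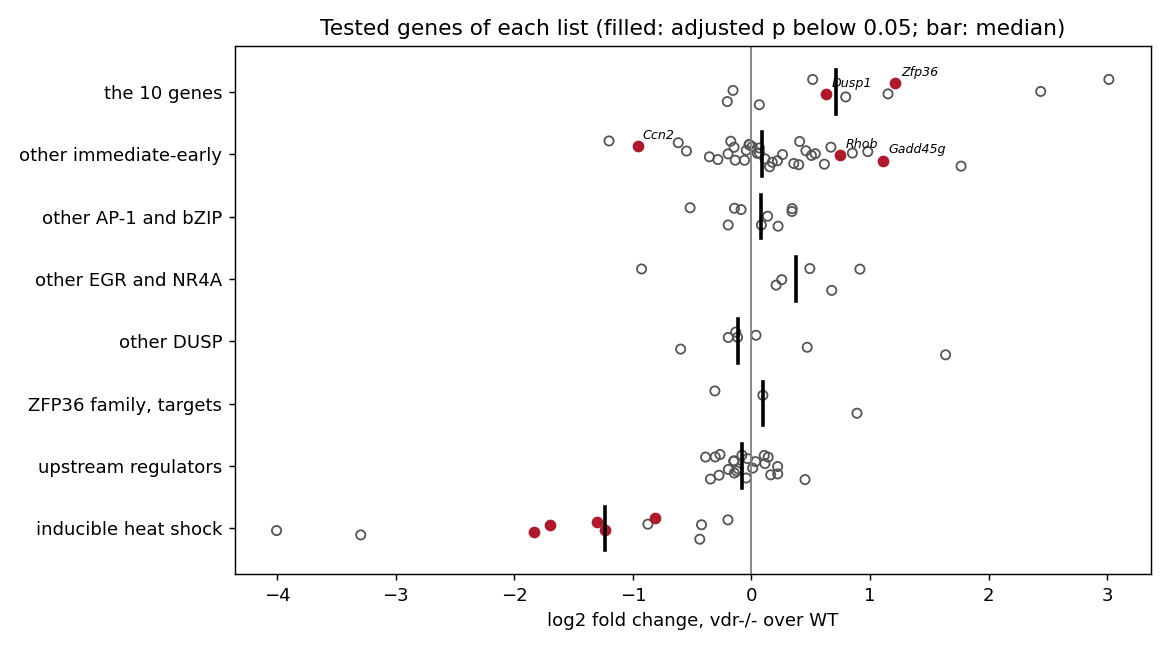
Log2 fold change of vdr-/- over WT for every tested gene of the lists (filled points have an adjusted p below 0.05, the black bar is the list's median, and vertical scatter within a list has no meaning). The 10 genes have a median of 0.71 and the other immediate-early genes 0.09, while the inducible heat shock genes lie below 0.

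Inducible heat shock genes, another stress response, were lower in vdr-/- than in WT muscle. Of these, 11 of 11 had log2 fold changes below 0 (median -1.24), and 5 were called lower, against 0.558% of all tested genes. The 5 were Hsp90aa1 (-1.84 ± 0.19), Hsph1 (-1.70 ± 0.18), Hspb1 (-1.30 ± 0.14), Dnaja1 (-1.24 ± 0.18) and Bag3 (-0.81 ± 0.13), with edgeR adjusted p from 0.000527 to 0.00708. The summed level of the 11 was 1008 and 884 CPM in vdr-/- replicates 1 and 2 and 1701 and 1514 CPM in WT replicates 1 and 2. Within vdr-/-, replicate 1 was above replicate 2 in 10 of the 11, and the share of all tested genes in that order is not given. The gap was small for some, such as Bag3 (31.9 and 31.7 CPM) and Hspe1 (53.8 and 52.5 CPM). It was larger for others, such as Hspa1a (8.41 and 2.39 CPM), and Hsph1 went the other way (19.7 and 20.1 CPM). Replicate 1 also led within WT: it was the highest library for 10 of the 11, against 27.3% of all tested genes. Any relation of these genes to Fos was not tested.

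Markers of other cells also differed between these libraries, and their part in the results above was not tested; in bulk tissue, fewer cells of a type and less RNA per cell cannot be told apart. Neutrophil markers summed to 32.3 and 3.07 CPM in vdr-/- and to 0.663 and 1.25 CPM in WT. Only 2 of the 8 could be tested, and 0 were called by edgeR or DESeq2 or had an unadjusted p below 0.05. With the replicate block 2 of 2 were called higher, as were 251 of all 13076 tested genes. With no filter 2 of 8 were called higher, as were 530 of all 26657. Ngp, Camp and Mmp8 were at 0 in both WT libraries. Red blood cell markers summed to 599 and 433 CPM in vdr-/- and 280 and 298 CPM in WT, with 4 of 7 called higher and 1 of 7 without vdr-/- replicate 1. Fat-cell markers summed to 3196 and 2735 CPM in vdr-/- and 663 and 759 CPM in WT, with 7 of 8 called higher. Over all tested genes 1.91% were called higher with all libraries.

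Of the remaining lists edgeR called no marker, and DESeq2 called 1 smooth muscle and 1 fibre marker. By edgeR 1 to 4 of 7 or 8 in each had an unadjusted p below 0.05, with no share of all tested genes given beside them. Without each library in turn 0 to 2 markers of each list were called, with 2 for tendon without vdr-/- replicate 1. Endothelial markers summed to 200 and 192 CPM in vdr-/- and 210 and 230 CPM in WT (median log2 fold change -0.20). Smooth muscle and pericyte markers summed to 411 and 353 CPM in vdr-/- and 487 and 466 CPM in WT (-0.04). The median was 0.00 for fibroblast, 0.17 for macrophage, -0.17 for satellite cell, 0.05 for Schwann cell, -0.48 for tendon and -0.08 for muscle fibre markers. Of 5 sex-linked genes, Xist was called lower, and the 4 Y-linked genes were not called, although vdr-/- was above WT in each (4 of 5 had an unadjusted p below 0.05). All 4 were called higher without WT replicate 1, without WT replicate 2 and with no robust estimation, and 2 of the 4 with no filter.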

How the data were processed

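RNA-seq gene counts were used from 2 vdr-/- and 2 WT quadriceps libraries. The deposited values are raw counts of reads per Ensembl gene, 1 column a library, as the values show. The build was GRCm38 (mm10) and the tools were Trimmomatic, STAR and DESeq2, per the submitters' processing notes; their versions and settings and the annotation release were not given in the sources used here, and the labels name a TruSeq kit. Of 55573 IDs, 55480 (99.83%) matched GENCODE M21. Genes were kept by filterByExpr of edgeR 4.0.16 (minimum count 10, minimum total 15), scaled by TMM (factors 0.9797 to 1.0485) and tested with glmQLFit (robust) and glmQLFTest in R 4.3.3, genotype as the only term, after a check on simulated counts. FPKM here is TMM-normalised CPM per kilobase of exon union. Rows without a gene name: none. The members and lists were chosen with earlier results of these data known. The text names all 10 members, called genes of the other gene lists and the 3 with the smallest p in each (1 gene is not reported here), and the 5 genes nearest to the most variable member (mean CPM at least 2; log2 CPM with prior count 2). Marker lists are given by summed level. Alternatives were RLE scaling, DESeq2 1.42.0, no filter, no robust estimation, 3 abundant RNAs left out, X and Y genes left out, a replicate block and each library left out.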

Additional observations from a re-analysis of the deposited data

How the results depend on the processing

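All 10 genes kept direction and side of the threshold under RLE scaling, DESeq2, no filter, no robust estimation, the replicate block, without mt-Rnr1, mt-Rnr2 and Rn7sk, and without X and Y genes. Without each library in turn the called members numbered 1 to 6 (2 with all libraries), and the log2 fold change ran from -0.60 to 0.12 for Jun, -0.051 to 0.88 for Junb, -0.17 to 1.30 for Egr1, -1.01 to 1.91 for Atf3, -0.59 to 0.12 for Ier2, -0.26 to 0.48 for Nr4a1, -0.075 to 0.61 for Maff, -0.11 to 0.26 for Zfp36l1 and -0.50 to 0.046 for Myh1. Over all alternatives the adjusted p ran from 4.37e-08 to 0.0157 for Zfp36, 0.000719 to 0.0683 for Dusp1, 1.24e-06 to 0.885 for Fos, 2.22e-05 to 0.913 for Fosb, 0.0343 to 0.962 for Junb, 0.00517 to 1.00 for Egr1 and 0.00128 to 1.00 for Atf3. Called genes in all numbered 323 and 223 to 415 without each library. With no filter they numbered 720, with 6 other immediate-early genes (3 in the main test) and 1 each, in place of 0, among AP-1, EGR and NR4A, dual-specificity phosphatase and upstream genes. DESeq2 called 1 AP-1 gene (Maf). Without each library the calls ranged from 3 to 9 among other immediate-early genes and from 0 to 1 among EGR and NR4A genes and phosphatases. Over all tested genes same-numbered libraries did not deviate together (correlation 0.039), and the numbers were not taken as pairs. Such a correlation cannot exclude a difference that same-numbered libraries share in some genes. The replicate block called 314 genes, 2 members, 8 heat shock genes (5 without it), 2 neutrophil markers (0 without it) and 1 phosphatase. By edgeR with the block 5 members had an unadjusted p below 0.05, against 2 in the main test. The cause of these shifts was not tested. With 2 libraries a group and 1 library far from its partner, the depth (10.79 M to 21.34 M counts) limits Fosb (7 to 217 counts) more than the other members.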
